A study of Mus musculus with 4 samples.

Results

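The replication-dependent histone genes are the clustered genes that supply the nucleosome proteins H2A, H2B, H3 and H4 and the linker histone H1 while DNA is copied. They were taken as all probe sets whose single gene symbol begins with Hist1h, Hist2h, Hist3h or Hist4h, or, in newer names, with H2ac, H2bc, H3c or H4c. The rule found 22 probe sets of 21 genes among 41345 probe sets, of which 23521 are paired with 1 gene. They comprise 7 probe sets of 6 H2A genes, 8 of 8 H2B genes and 7 of 7 H4 genes. No H3 gene has a probe set of its own, and the H1 genes carry newer names that the rule does not cover; both are described after the members. In all, 16 probe sets belong to the large cluster of chromosome 13 and 6 to the smaller cluster of chromosome 3.

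Total RNA was hybridised to 4 GeneAtlas arrays, 1 for each group and all of strip 2. Every group consisted of mouse embryonic stem cells in which Prdm14 was knocked out, a gene for a PR domain protein of naive pluripotent and germ cells, and all were kept with 2i and LIF on STO feeder cells, a mouse fibroblast line. The first group carried an empty vector and the second a vector for mouse PRDM14. The third expressed PRDM14 of the sea urchin. The fourth expressed it together with sea urchin CBFA2T, a co-repressor of the family that binds PRDM14. With a single array in each group there was no replicate error, no difference was tested, and precision is limited by how few arrays there are. Strain, cell clones and vector promoters are not stated in the labels.

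Histone mRNAs of this class are made mainly in S phase. They have no introns and end in a conserved stem-loop in place of a poly(A) tail, which is bound by the stem-loop binding protein SLBP. Transcription takes place in histone locus bodies, where NPAT and FLASH (the product of Casp8ap2) act, and many H2A and H2B genes lie head to head and share the DNA between their start sites. Embryonic stem cells cycle quickly and spend much of the cycle in S phase. Copies of a histone type are nearly identical in coding sequence, so a probe set named for 1 gene may also bind RNA of its paralogs, and every member value below is uncertain in that respect.

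The values are log2 signals after RMA, a procedure that corrects background, equalises the arrays' distributions and summarises the probes of a set. Array medians lay between 4.54 and 4.55. A probe set counted as measured well enough to compare when its highest value reached 4.84, the median of all values with 1 gene; this filter was passed by 12525 probe sets. RMA gives no detection call, and differences of dim sets are drawn toward 0. The Prdm14 probe set read 5.71 for the empty vector, 5.57 for mouse PRDM14, 5.77 for sea urchin PRDM14 and 5.53 where CBFA2T was added. The label of the mouse PRDM14 array is thus not borne out by this probe set, whose position relative to the deletion is unknown here, and group names below mean the arrays labelled with them. All 10 embryonic stem cell markers examined were above the filter value on every array, Pou5f1 at 6.51 to 6.61. They were not all level over the arrays. Tdgf1 was at 8.25 with the empty vector, 8.42 with mouse PRDM14, 8.74 with sea urchin PRDM14 and 7.58 with CBFA2T. Between the 2 sea urchin arrays it differed by -1.16, past 2-fold, as did 0.184% of the tested sets. Tfcp2l1 lay between 6.93 and 7.60. Of 11 fibroblast markers with a probe set, 8 were above it on every array, while Postn, Lum and Dcn lay below. RNA of feeder cells and of stem cells, and fewer cells and less RNA per cell, cannot be told apart in these samples.

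The promoters of the members show how the genes are built. RefSeq promoter windows of GRCm38.p6, from 250 bases before to 50 bases after the start site, were found for 19 of the 21 genes. A CCAAT box (CCAAT, either strand) stood in all 6 H2A and all 7 H2B windows, but in 1 of 6 H4 windows, against 37.4% of the 32851 windows of the table. The octamer ATTTGCAT, the site known for OCT factors in H2B promoters, stood in 5 of 7 H2B, 3 of 6 H2A and 0 of 6 H4 windows, against 1.74% of all windows. TATAAA stood in 13 of 19 windows, against 13.6%, and AAACACA, a motif known from H1 promoters, in 3 of 19, against 7.18%. Both strands were searched, and no 2 of these motifs contain each other. Head-to-head neighbours share bases and so their matches: the windows of H2ac1 and H2bc1 have 220 bases in common, and those of H2bc12 and H2ac12 have 277.

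The sequences below precede the start sites of the 4 genes whose values are described most closely, read 5′ to 3′ on the strand of the named gene. H2ac1 (chr13:23934187-23934436, plus strand) had the largest difference of all members, and its stretch covers 250 of the 280 bases between its start site and that of H2bc1. H2bc12 (chr13:22035644-22035820, plus strand) had the largest difference in the other direction, and its 177 bases are all those between its start site and that of H2ac12. H2bc3 (chr13:23746584-23746733, plus strand) and H4c12 (chr13:21750554-21750703, minus strand) stand for an H2B gene with the octamer and an H4 gene without CCAAT. Capitals mark the 4 motifs on either strand.
H2ac1: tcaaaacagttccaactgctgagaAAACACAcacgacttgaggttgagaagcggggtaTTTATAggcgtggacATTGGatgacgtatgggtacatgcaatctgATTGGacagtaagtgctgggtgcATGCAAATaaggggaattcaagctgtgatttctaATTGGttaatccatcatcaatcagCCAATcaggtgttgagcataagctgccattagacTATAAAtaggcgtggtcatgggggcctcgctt
H2bc12: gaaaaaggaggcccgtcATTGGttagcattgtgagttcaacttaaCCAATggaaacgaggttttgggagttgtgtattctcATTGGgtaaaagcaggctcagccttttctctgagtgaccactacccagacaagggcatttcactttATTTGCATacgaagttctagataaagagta
H2bc3: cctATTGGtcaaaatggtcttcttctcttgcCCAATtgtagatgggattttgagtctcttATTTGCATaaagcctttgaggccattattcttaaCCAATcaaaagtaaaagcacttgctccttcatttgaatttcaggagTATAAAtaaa
H4c12: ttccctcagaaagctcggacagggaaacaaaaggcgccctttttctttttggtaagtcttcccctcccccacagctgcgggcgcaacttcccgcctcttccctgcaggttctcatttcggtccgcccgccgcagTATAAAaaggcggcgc
In the H2ac1 stretch, TATAAA on the gene's own strand ends 27 bases before the start site, and the octamer stands between 124 and 117 bases before it on the opposite strand. A motif match describes the letters and is not evidence of binding.

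Of the 22 members, 8 passed the filter, and all 8 were above the filter value on each of the 4 arrays, so that none passed through a single array. These were the H2A sets of H2ac1, H2ac10, H2ac20 and 1 of 2 sets of H2ac21, the H2B sets of H2bc3, H2bc12 and H2bc18, and the H4 set of H4c12. The other 14 stayed between 2.21 and 4.53 on all arrays. These 14 sets lie in a range where RMA signal and background are not separated, and most are given by range.

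**Figure D1:**
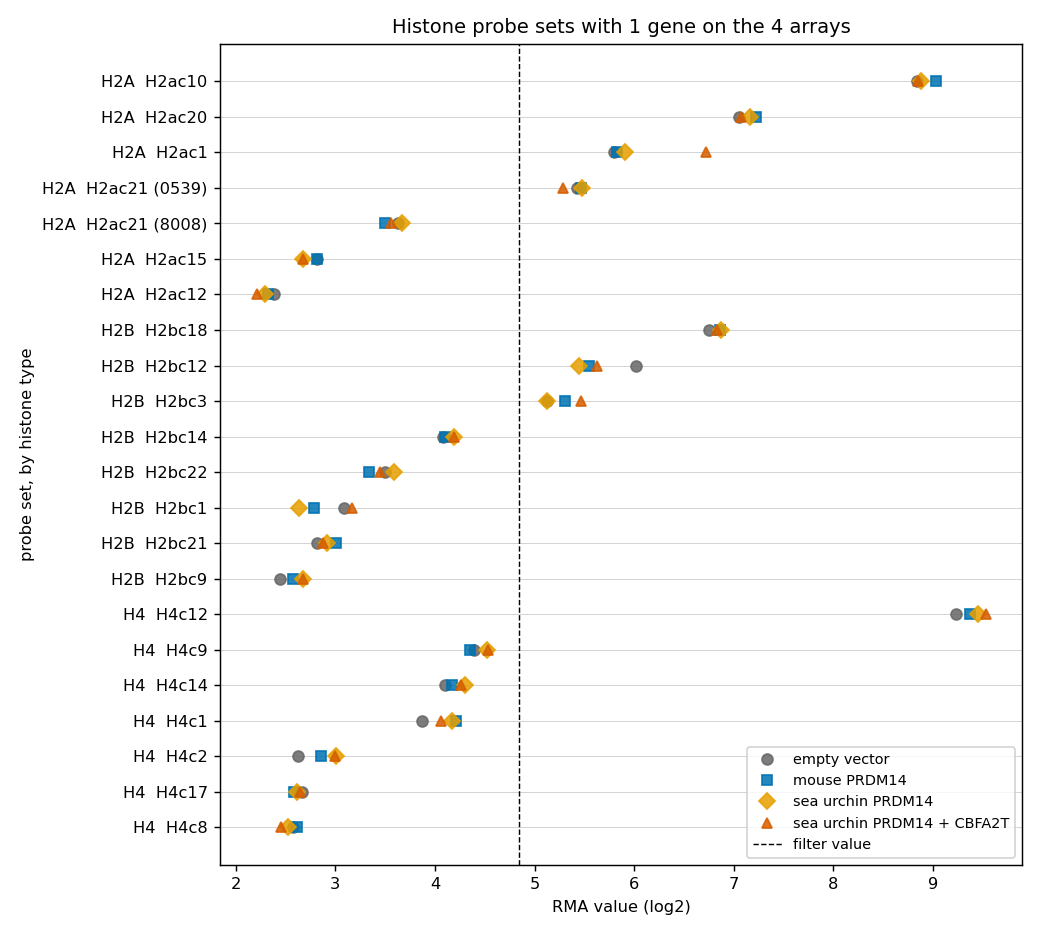
Log2 RMA value of each of the 22 histone probe sets (rows, by histone type) on the 4 arrays (1 symbol per array); the dashed line is the filter value of 4.84. For most sets the 4 symbols nearly coincide; H2ac1 stands to the right on the array with CBFA2T (6.72) and H2bc12 to the right on the empty vector array (6.02). The 2 sets of H2ac21 carry the last 4 digits of their probe set number.

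The highest and lowest arrays were less than 0.25 apart on the log2 scale for 15 of the 22 members (68.2%), beside 70.9% of all 23521 sets with 1 gene. They were less than 0.5 apart for 19 of 22 (86.4%), beside 97.3%; the exceptions were H2ac1, H2bc12 and H2bc1. The median spread over the arrays was 0.19 for the members and 0.19 for all sets. Among the 8 members past the filter the spread was wider than among all tested sets: its median was 0.24 beside 0.19, with 4 of 8 beside 67.6% less than 0.25 apart and 6 of 8 beside 96.5% less than 0.5 apart. The empty vector array was the lowest of the 4 for 12 of 22 members (54.5%), beside 24.8% of all sets. The 34 shared histone sets described below did not show this order. Of them, 12 were above the empty vector array with mouse PRDM14, 17 with sea urchin PRDM14 and 21 with CBFA2T. These 4 values per set come from single arrays, so a shift of 1 array by chance cannot be told apart from a difference of the cells.

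With mouse PRDM14, no member was 2-fold or 1.5-fold apart from the empty vector array in either direction. Of all tested sets, 0.0798% were at least 2-fold apart and 0.447% at least 1.5-fold. Over all 22 members the median log2 difference was 0.04, and 15 were above 0, while the median of all sets with 1 gene was -0.0025 and 49.2% of them were above 0. The 8 members past the filter had a median of 0.12. Their lowest difference was that of H2bc12 (-0.47) and their highest that of H2ac10 (0.19).

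With sea urchin PRDM14 alone, again no member reached 1.5-fold against the empty vector, where 0.503% of the tested sets did and 0.0319% reached 2-fold. The 22 members had a median difference of 0.09 with 16 above 0, beside -0.0009 and 49.6% for all sets with 1 gene. The 8 past the filter had a median of 0.08. H2bc12 came closest to 1.5-fold, at -0.57. The 7 H4 sets had the highest median of the types (0.21, with 5 above 0), but 6 of them are dim on all arrays. The 5 shared sets that hold H4 genes only, also dim, had a median of 0.00 in this comparison.

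With sea urchin PRDM14 and CBFA2T, 1 member, H2ac1, was more than 1.5-fold higher than on the empty vector array and none was 2-fold apart. In this comparison 0.894% of the tested sets were 1.5-fold apart and 0.224% were 2-fold apart. The median over the 22 members was 0.07 with 14 above 0, beside 0.0009 and 50.3% for all sets with 1 gene. Over the 8 past the filter it was 0.05. Against the sea urchin PRDM14 array, H2ac1 was again the 1 member past 1.5-fold, beside 0.575% of the tested sets at 1.5-fold and 0.184% at 2-fold. There the median was -0.02 over the 22 members, with 8 above 0, beside 0.0017 and 50.6% for all sets with 1 gene. Over the 8 it was 0.02. The comparisons with the empty vector share that array, so their differences are not independent of each other.

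**Figure D2:**
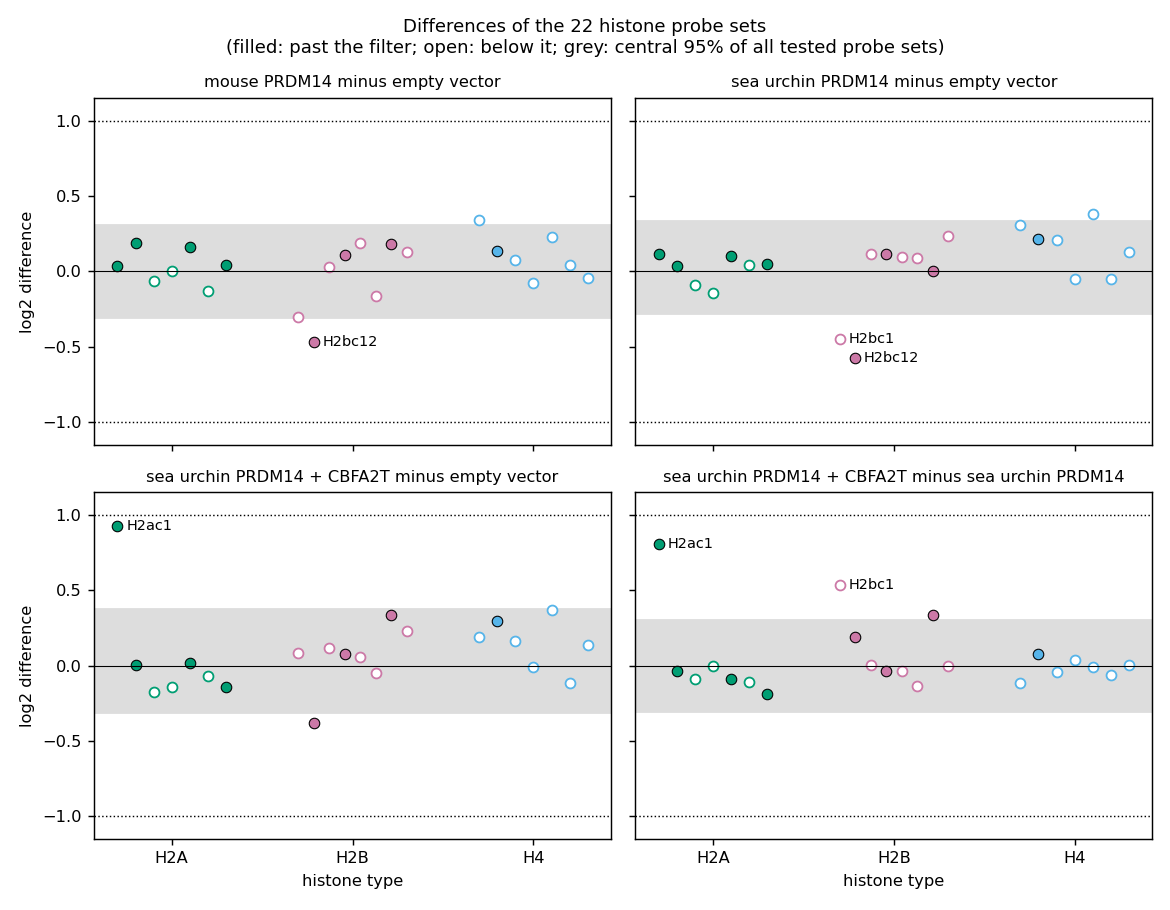
Log2 difference of the 22 histone probe sets in the 4 comparisons (panels), by histone type; filled points passed the filter, open points did not, the grey band holds the central 95% of the 12525 tested sets and dotted lines mark 2-fold. H2ac1 lies near 2-fold in both comparisons with the array that has CBFA2T (0.93 and 0.81), and H2bc12 lies below the band in the 3 comparisons with the empty vector.

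H2ac1 encodes TH2A, a histone H2A variant of testis and oocyte that partners TH2B. H2ac1 read 5.79 on the log2 scale with the empty vector, 5.83 with mouse PRDM14, 5.91 with sea urchin PRDM14 and 6.72 with sea urchin PRDM14 and CBFA2T. The first 3 arrays lay within 0.12 of each other and the array with CBFA2T stood above them. The difference was 0.93 (1.90-fold) against the empty vector and 0.81 (1.75-fold) against sea urchin PRDM14 alone. Of the 12525 tested sets, 34 had a difference at least as high in the first comparison and 29 in the second, H2ac1 included.

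H2bc1, which encodes TH2B and shares its promoter stretch with H2ac1, was dim. Its values were 3.08 with the empty vector, 2.78 with mouse PRDM14, 2.63 with sea urchin PRDM14 and 3.16 with CBFA2T. It was thus 0.53 higher with CBFA2T than with sea urchin PRDM14 alone, but only 0.08 higher than with the empty vector, all below the filter value. The 10 nearest genes with a probe set, 5 on each side of the pair from Trim38 to Gm11346 in RefSeq order, include 5 that did not pass the filter. They differed by -0.10 to 0.15 between the CBFA2T array and the empty vector array. Against sea urchin PRDM14 alone they differed by -0.09 to 0.13, and 0 of 10 reached 1.5-fold in any of the 4 comparisons.

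**Figure D3:**
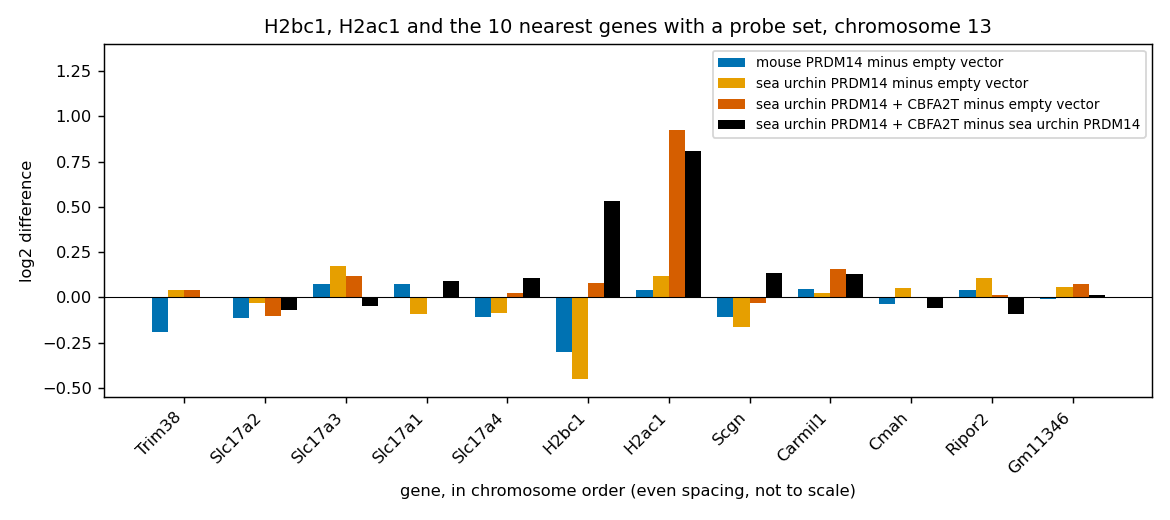
Log2 differences (bars, 1 colour per comparison) of H2bc1, H2ac1 and the 5 nearest genes with a probe set on each side, in chromosome order with even spacing. The bars of H2ac1 that involve the CBFA2T array reach 0.93 and 0.81, and those of the 10 neighbours stay between -0.19 and 0.17.

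The array with CBFA2T also differed in a list of genes used as markers of the 2-cell stage, and their values stand here beside H2ac1. The list holds 10 genes, of which 2 were above the filter value on all 4 arrays. Zscan4c, a zinc finger gene of this stage, was at 5.10 with the empty vector, 5.67 with mouse PRDM14, 5.36 with sea urchin PRDM14 and 7.27 with CBFA2T. Dppa2, a chromatin gene of early embryos, was at 7.62, 7.55, 7.66 and 9.02 in that order, so it was bright on the other arrays too and is a less specific marker here. Both stood highest on the CBFA2T array. Another 5 passed the filter through the CBFA2T array alone, so no count of those higher there is given. Tcstv1, Tcstv3 and Zfp352 stayed below the filter value and differed on the CBFA2T array from the empty vector array by 0.61, 0.86 and -0.14. A summed level of all 10 takes in these dim sets and the 5 that passed through 1 array. Among those 5, Zscan4b reached 8.18 and Zscan4e 8.07 on the CBFA2T array, so the sum is a description only. On the log2 scale it was 8.48, 8.52, 8.50 and 10.52, in the array order used for Zscan4c. The part of this difference in the H2ac1 value was not tested. Other H1, H2A and H2B variants of the germ line had 16 probe sets, listed after their values were seen and so given as a description. Of these, 6 were below the filter value on all arrays. On the CBFA2T array the 16 differed by -0.38 to 0.19 from the empty vector array and by -0.33 to 0.21 from the sea urchin PRDM14 array. Among them was H1f8, the oocyte linker histone, at 4.67, 4.86, 4.89 and 4.86 in the order empty vector, mouse PRDM14, sea urchin PRDM14 and CBFA2T.

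The other H2A sets past the filter varied little. H2ac10 was at 8.84 with the empty vector, 9.04 with mouse PRDM14, 8.88 with sea urchin PRDM14 and 8.85 with CBFA2T, so only the mouse PRDM14 array stood slightly above the rest. H2ac20 was at 7.06, 7.22, 7.16 and 7.07 in the same order, and the brighter H2ac21 set at 5.42, 5.47, 5.47 and 5.28. These 3 sets were lower on the CBFA2T array than on the sea urchin PRDM14 array by 0.03 to 0.19, while H2ac1 was higher. The dimmer H2ac21 set lay between 3.50 and 3.67.

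H2bc12 was the member with the lowest difference. Its value was 6.02 with the empty vector, 5.54 with mouse PRDM14, 5.44 with sea urchin PRDM14 and 5.63 with CBFA2T, so the empty vector array stood above the 3 PRDM14 arrays, which were within 0.19 of each other. It was 1.39-fold, 1.49-fold and 1.30-fold lower on those 3 arrays, respectively, than on the empty vector array. Of the 12525 tested sets, 54, 21 and 174 had a difference as low or lower in these comparisons, H2bc12 included. Since the 3 comparisons share the empty vector array, they count as 1 observation of that array. H2bc12 is also among the 12 genes of 1 of the bright shared sets described below. That set went the other way, differing from the empty vector array by 0.11 with mouse PRDM14, 0.12 with sea urchin PRDM14 and 0.24 with CBFA2T. The head-to-head neighbour of H2bc12, H2ac12, was dim, at 2.21 to 2.39.

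H2bc3 was at 5.13 with the empty vector, 5.30 with mouse PRDM14, 5.13 with sea urchin PRDM14 and 5.46 with CBFA2T, higher by 0.34 on the last than on either array at 5.13. H2bc18 of chromosome 3 was at 6.75, 6.86, 6.87 and 6.83 in the same order. The remaining H2B sets, of H2bc9, H2bc14, H2bc21 and H2bc22, lay between 2.44 and 4.19 on all arrays. Among the 3 H2B sets past the filter, H2bc12 was lower on each PRDM14 array than on the empty vector array, H2bc18 was higher by 0.08 to 0.12, and H2bc3 was higher by 0.00 to 0.34.

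H4c12 was the 1 H4 set of the members past the filter. The H4 gene H4f16, outside the rule, is described below. H4c12 was at 9.24 with the empty vector, 9.37 with mouse PRDM14, 9.46 with sea urchin PRDM14 and 9.54 with CBFA2T. For H4c12, all 3 PRDM14 arrays were thus above the empty vector array, by 0.13 to 0.30. The protein sequence of H4 is the same from nearly all H4 genes. Of the dim H4 sets, those of H4c1, H4c2 and H4c14 were also lowest on the empty vector array: H4c1 was at 3.87 there and at 4.06 to 4.21 on the other arrays, and H4c2 at 2.63 there and higher by 0.23 to 0.38 on the others. H4c8, H4c9 and H4c17 were not lowest there, and stayed within 0.18 over the arrays. All these values lie below the filter value.

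By position, the 6 sets of chromosome 3 were all lower on the CBFA2T array than on the sea urchin PRDM14 array, by -0.19 to -0.04, and all higher on the sea urchin PRDM14 array than on the empty vector array, by 0.04 to 0.21. Of all sets with 1 gene, 50.6% and 49.6%, respectively, were above 0. The sea urchin PRDM14 array enters both comparisons, 3 of the 6 sets did not pass the filter, and 2 of the 6 belong to H2ac21. The 16 sets of chromosome 13 had medians of 0.00 and 0.06 in these comparisons, with 8 and 10 of 16 above 0.

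Probe sets shared by several histone genes hold much of the histone signal of the array. There were 37 sets with at least 1 gene of the rule among several genes, and 34 with values of their own, since 3 repeated the values of another set exactly. No single gene can be named for them. The 5 brightest, 3 of H2A genes and 2 chiefly of H2B genes, lay between 9.47 and 10.32, and their differences were within -0.07 and 0.11 for mouse PRDM14, within -0.01 and 0.12 for sea urchin PRDM14 and within -0.04 and 0.24 for CBFA2T against the empty vector. All 12 sets that hold H3 genes only were shared by 4 or 8 genes. Of these, 3 passed the filter value, at 5.71 to 7.48. The median difference of the 12 from the empty vector array was -0.09 with mouse PRDM14, -0.07 with sea urchin PRDM14 and -0.02 with CBFA2T, none reaching 1.5-fold. The 5 sets that hold H4 genes only, all below the filter value, had medians of -0.10, 0.00 and 0.01 in that order. The largest difference among the 34 was in a dim set shared by 4 H2B genes, at 3.63 with the empty vector, 2.60 with mouse PRDM14, 2.92 with sea urchin PRDM14 and 2.96 with CBFA2T. It was 2-fold lower with mouse PRDM14 (-1.03), below the filter value on all arrays. The same 4 genes have another 2 sets. One was among the 5 brightest, at 9.93, 9.92, 9.98 and 10.11 in that order, and the other was dim, at 2.46 to 2.75, with differences from the empty vector array of -0.10, 0.19 and 0.09. Over the 34 sets the median difference with mouse PRDM14 was -0.05 and 12 were above 0, beside 0.04 and 15 of 22 for the members. For the 11 shared sets past the filter value it was -0.01, with 5 above 0. With sea urchin PRDM14 the 34 sets had a median of 0.00 with 17 above 0, and with CBFA2T 0.03 with 21.

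**Figure D4:**
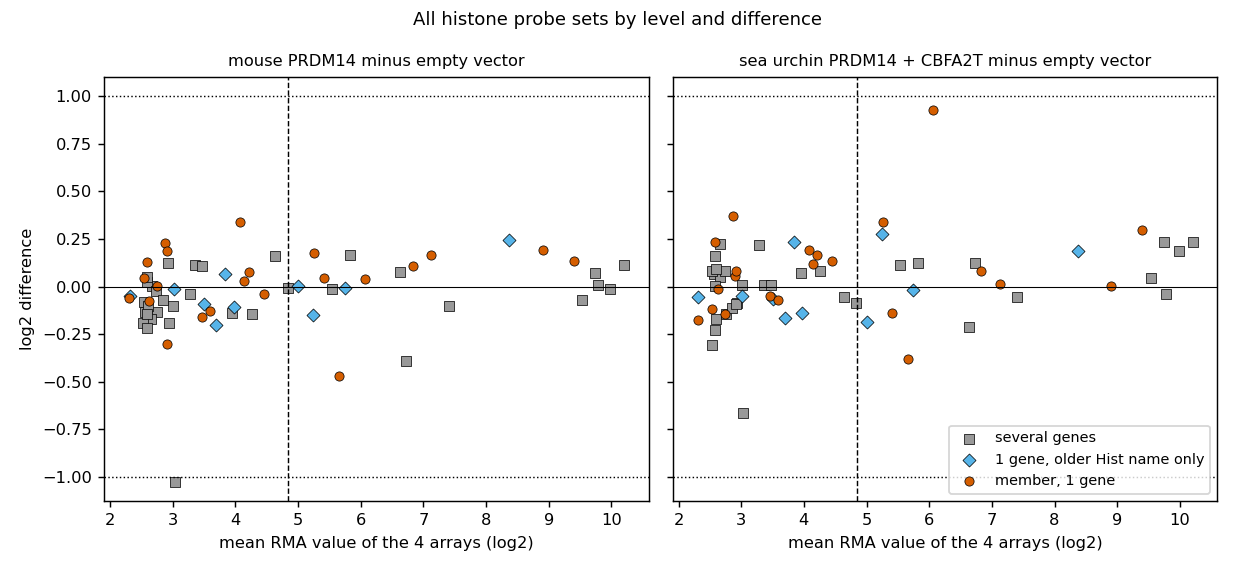
Log2 difference against the mean log2 RMA value of the 4 arrays for all histone probe sets, for mouse PRDM14 (left) and for sea urchin PRDM14 with CBFA2T (right) against the empty vector; the dashed line is the filter value and dotted lines mark 2-fold. The sets brighter than 9, members or shared, stay within 0.30 of 0, and H2ac1 (right, 0.93) and the dim shared H2B set (left, -1.03) stand apart.

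Another 10 probe sets belong to genes that carried a Hist name only formerly. Of these, 5 measured linker histone H1 genes. H1f5 was at 5.10 with the empty vector, 4.95 with mouse PRDM14, 5.53 with sea urchin PRDM14 and 5.38 with CBFA2T, so both sea urchin arrays stood above the other 2, by 0.28 to 0.57. H1f2 stayed between 5.72 and 5.80, and H1f1, H1f3 and the testis gene H1f6 were below the filter value. Both sets of the H4 gene H4f16 were above it on all arrays, and they differed from each other. The brighter, at 8.25 to 8.50, differed from the empty vector array by 0.25 with mouse PRDM14, 0.04 with sea urchin PRDM14 and 0.19 with CBFA2T. The dimmer, at 4.89 to 5.09, differed by 0.01, -0.13 and -0.19 in that order. None of the 10 reached 1.5-fold in any of the 4 comparisons.

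Genes tied to the transcription, processing or decay of histone mRNA were examined as a list, which thus also holds Npat, Hinfp and Cdk2. Of 21 genes, 20 had a probe set with 1 gene and 16 passed the filter, none of them 1.5-fold apart in any of the 4 comparisons. With mouse PRDM14, 3 of the 16 were above 0 and the median was -0.11, beside 48.5% and -0.0050 for all tested sets. With sea urchin PRDM14 the median was -0.03, and with CBFA2T it was -0.01. Slbp was at 5.50 with the empty vector, 5.27 with mouse PRDM14, 5.42 with sea urchin PRDM14 and 5.54 with CBFA2T. Casp8ap2 went the other way with mouse PRDM14, at 4.90, 5.32, 5.07 and 5.02 in that order. Npat stayed below the filter value, at 4.41 to 4.74. The largest difference with sea urchin PRDM14 was that of Ncbp1 (0.34), a cap-binding protein, and that with CBFA2T was of Lsm11 (-0.33), a subunit of the U7 particle.

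Genes of S phase were examined as a further list. Of 40 genes, 33 passed the filter, none of them 1.5-fold apart in any of the 4 comparisons, with medians of -0.03 for mouse PRDM14, -0.04 for sea urchin PRDM14 and 0.02 for CBFA2T against the empty vector. Pcna, the sliding clamp of replication, lay between 7.67 and 7.78 on the 4 arrays. Ccne1, the cyclin of S phase entry, was at 6.37, 6.26, 6.36 and 6.73, highest with CBFA2T. Rfc2, a subunit of the clamp loader, had the largest difference of the list with mouse PRDM14 (-0.53) and with CBFA2T against the empty vector (-0.38); it was at 5.15 with the empty vector, 4.62 with mouse PRDM14, 4.84 with sea urchin PRDM14 and 4.77 with CBFA2T, highest with the empty vector. The largest difference with sea urchin PRDM14 was that of Dut (-0.32), the dUTPase, and between the sea urchin arrays that of Tk1 (0.40), a thymidine kinase. A list of 15 histone variants outside the replication-dependent set served for comparison; H2ax, which can also give a stem-loop mRNA, and the germ-line linker histones H1f8 and Hils1 are on it. Of these, 10 had a probe set with 1 gene, 8 passed the filter and none was 1.5-fold apart in any of the 4 comparisons. H2ax was at 8.27 to 8.51, and Macroh2a1, a variant of repressed chromatin, was at 6.35, 6.28, 6.26 and 5.95, lowest with CBFA2T.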

How the data were processed

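Total RNA of 4 samples was labelled with a GeneChip WT kit, per the labels' protocols, and measured on 4 GeneAtlas arrays, 1 per group. The deposited values are log2 signals that the authors made with RMA, per the submitters' processing notes. The RMA version, the build and which arrays were processed as one set: not given in the sources used here. RMA would hide a shift shared by most genes. Of 41345 probe sets, 23521 had 1 gene symbol, 1814 several and 16010 none in the platform annotation. The unit was the probe set, and for other gene lists the set with the highest mean. Sets whose highest value reached 4.84 were compared (12525). Differences of log2 values were called by size, at 2-fold and 1.5-fold, with no test. Named were all members past the filter, testis members, and in most lists the gene with the largest difference or a stated role. Dim H4 sets, H4f16 and 2-cell genes were named after their values were seen. Members and lists were chosen with earlier results of these data known. RefSeq tables of GRCm38.p6 gave names, gene order and promoters; all 22 members matched. Alternatives were other filters, cyclic loess, array medians subtracted, gene means, and other member sets. The calls by size were run on simulated data with changes set beyond the 2-fold threshold. That checks the arithmetic of the calls and cannot show how often they err on real arrays. Software was Python 3.11.15 (numpy 2.4.6, pandas 2.3.3, matplotlib 3.10.9) and R 4.3.3 with limma 3.58.1.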

Additional observations from a re-analysis of the deposited data

How the results depend on the processing

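No paired analysis was possible because each group has 1 array. The count of members 2-fold apart was 0 in all 4 comparisons under every alternative with that threshold; at 1.5-fold it was 1 for each comparison with the CBFA2T array, and 0 for the others. A median counted as moved when it changed by more than the spread of all tested differences divided by the square root of the number of members. For mouse PRDM14, the median of 0.12 became 0.0443 with no filter and 0.0440 with shared histone sets added. For CBFA2T against sea urchin PRDM14, the median of 0.02 became 0.0782 with the mean of a gene's sets, 0.0759 with shared sets, -0.0344 without the testis genes and -0.0359 with sets of formerly Hist-named genes, the last alternative being chosen after seeing the data. The H2B median, over 3 sets, became -0.18, -0.23 and -0.15 with the stricter filter for mouse PRDM14, sea urchin PRDM14 and CBFA2T against the empty vector, from 0.11, 0.00 and 0.08, and 0.0762 from 0.19 for CBFA2T against sea urchin PRDM14. With no filter it became 0.0916 for sea urchin PRDM14 and 0.0005 for CBFA2T against sea urchin PRDM14, and the H2A median for CBFA2T became -0.07 from 0.01. The cause was not tested; each such alternative changes which members enter. The other 169 medians and counts stayed within these limits, cyclic loess and subtracted array medians included. Low signal limits 14 of 22 members.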

Other observations

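Histone chaperones, which carry histones to and from DNA, included the list genes with the largest differences outside the markers of cell types. Of 24 genes, 20 passed the filter, and 2 of them were at least 1.5-fold higher with sea urchin PRDM14 than with the empty vector, where 0.503% of all tested sets were 1.5-fold apart. With CBFA2T 1 of the 20, Npm1, was at least 1.5-fold higher than with the empty vector, where 0.894% of all tested sets were 1.5-fold apart. Supt16, a subunit of the FACT complex, was at 6.54 with the empty vector, 6.97 with mouse PRDM14, 7.17 with sea urchin PRDM14 and 7.12 with CBFA2T, so the empty vector array was the lowest. Npm1, the nucleolar chaperone nucleophosmin, was at 8.36, 8.46, 8.98 and 9.06 in the same order, and both sea urchin arrays stood above the other 2. Between the 2 sea urchin arrays Supt16 differed by -0.04 and Npm1 by 0.08. The list median against the empty vector was 0.05 with mouse PRDM14, 0.06 with sea urchin PRDM14 and 0.12 with CBFA2T, beside 0.0055 for all tested sets in each of the last 2.

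Genes of G2 and M phase were not 1.5-fold apart in any of the 4 comparisons (22 of 24 passed the filter). Their medians against the empty vector were 0.02, 0.08 and 0.07 for mouse PRDM14, sea urchin PRDM14 and CBFA2T. Top2a, the DNA topoisomerase of dividing cells, differed by 0.53 with sea urchin PRDM14 and by 0.40 with CBFA2T.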
